A study of Mus musculus with 4 samples.

Results

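Ifrd1, its paralog Ifrd2 and the corepressor proteins that Ifrd1 is known to work with (Sin3a, Sin3b, Hdac1, Hdac2, Hdac3, Ncor1 and Sap30) were examined in injured mouse pancreas. The genes were chosen by name, as rows whose platform annotation gave exactly 1 symbol, and the row with the highest mean was kept for each gene. Of the 9 genes, 8 were measured, out of 22180 genes in all, and each had 1 row. Ncor1 was not analysed here.

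The study hybridised total RNA from whole pancreas to Affymetrix arrays, 4 in all. Wild type and IFRD1 null mice, 8 weeks old, gave 2 arrays each. Every mouse, controls included, had received cerulein at 100 µg/kg by intraperitoneal injection, 6 times a day on alternate days, and tissue was taken on day 5 in the proliferative phase of the injury response. Cerulein is an analog of cholecystokinin that overstimulates acinar cells and causes pancreatitis. Untreated pancreas is not analysed here, so each value compares genotypes within injured tissue. How the null allele was built, which part of the gene it removes, and the strain and sex of the mice, no label states.

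Ifrd1 is an immediate-early gene whose protein acts as a transcriptional co-regulator. It binds the Sin3 complex, in which the scaffold proteins Sin3a and Sin3b hold the histone deacetylases Hdac1 and Hdac2, and removal of acetyl groups from histones by these enzymes lowers transcription. A second corepressor, built on Ncor1, carries Hdac3. In mouse stomach and pancreas, Ifrd1 is known for its part in the return of mature secretory cells to the cell cycle after injury.

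A pair of sequences lies around the start of Ifrd1. The first is the window of 250 bases upstream of the Ifrd1 start (RefSeq, GRCm38.p6, chr12:40223190-40223439, minus strand). It is shown because transcription leaves it in both directions: the noncoding gene Gm7008 starts on the opposite strand, 175 bases upstream of the Ifrd1 start, and it was measured too. Capitals mark an inverted CCAAT box (printed as ATTGG) and the core letters of a CRE, the cAMP response element (TGACG).
Ifrd1 upstream window: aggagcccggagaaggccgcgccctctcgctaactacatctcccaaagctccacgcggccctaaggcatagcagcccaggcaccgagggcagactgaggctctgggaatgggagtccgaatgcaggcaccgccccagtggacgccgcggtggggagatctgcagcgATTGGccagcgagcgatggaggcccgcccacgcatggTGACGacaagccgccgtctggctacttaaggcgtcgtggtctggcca
Searched on both strands, CCAAT occurred in 33.8% of 32851 upstream windows of the same length and TGACG in 17.8%. The E-box CACGTG, the AP-1 site TGANTCA and the TATA box TATAAA had no match in the Ifrd1 window. None of the searched letters overlapped another match in it. The Ifrd1 window was 66.4% G or C, against a median of 52.4% over all windows.
The second sequence is the mature microRNA of Mir1938, which lies inside Ifrd1 on the same strand (chr12:40222782-40222803, minus strand, RefSeq, GRCm38.p6), 386 to 407 bases downstream of the Ifrd1 start. It is shown because its array row is a separate reading near the 5′ end of Ifrd1, and capitals mark its seed (bases 2 to 8), which no other mature mouse microRNA of the table shared.
mmu-miR-1938: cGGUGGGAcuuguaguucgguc

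The Ifrd1 transcript was the member that set the genotypes apart. Its level was 9.04 and 9.07 on the wild-type arrays and 6.99 and 7.09 on the null arrays (log2 expression). The null arrays were far below both wild-type arrays, and the arrays of each genotype lay close together, so all 4 arrays matched their labels. The difference, null minus wild type, was -2.02 ± 0.11 (log2, SE, n = 2 against 2; 95% interval -2.30 to -1.74), which is 4.05-fold. In limma's fit over all genes Ifrd1 had the second smallest p, yet its adjusted p was 0.138, so it did not pass the threshold of 0.05. It passed with arrays centred on their medians (limma adjusted p = 0.0313) and with a trend and robust eBayes (limma adjusted p = 0.0419). The level in the null was still above the median of each array; no source says whether the probes of this row lie in the removed part.

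**Figure D1:**
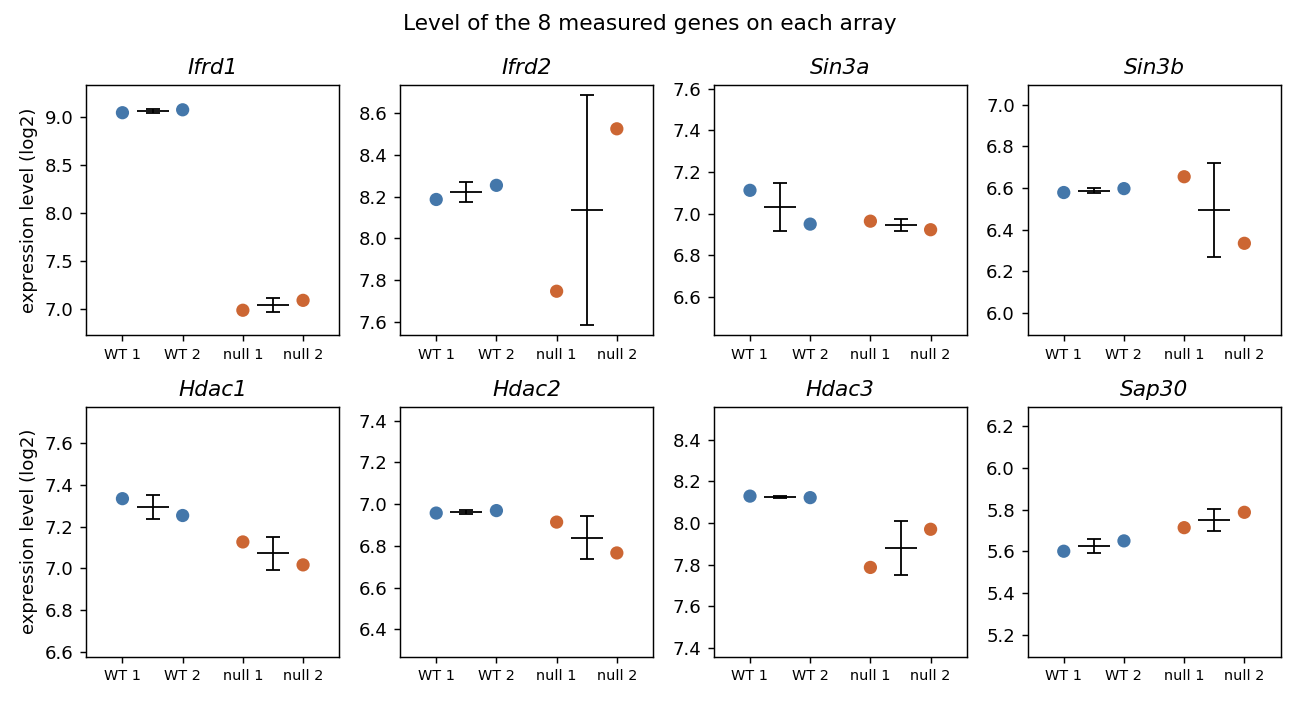
Level (log2) of each measured gene on the 4 arrays, wild type (WT) in blue and Ifrd1 null in orange, with the mean and SD of each genotype in black; each panel has its own axis, wider for Ifrd1. The Ifrd1 points form separate groups near 9.06 and 7.04, while the Ifrd2 points of the null arrays lie on either side of wild type.

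Within the locus, the row of Mir1938 was lower in the null as well. It stood at 6.86 and 6.80 in wild type and at 5.46 and 5.92 in the null (log2 level). The groups did not overlap, as for 35.8% of all genes, and all 4 Mir1938 values were above the array median. The difference was -1.14 ± 0.19 (log2, SE), 2.20-fold, with a limma adjusted p of 0.721. Whether this row reads the microRNA or longer RNA of the same stretch was not tested.

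Gm7008, the noncoding gene on the other side of the shared window, stood at 4.17 and 3.89 in wild type and at 4.03 and 4.21 in the null. These groups overlapped, at levels near the array median that were not shown to exceed background. Its difference was 0.09 ± 0.15 (log2, SE; 95% interval -0.31 to 0.48), and its sign turned without wild type 2 (-0.050) and without Ifrd1 null 2 (-0.00078).

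A null allele made by targeting can carry flanking sequence of another strain, so the measured genes on either side of Ifrd1 were read too. The 10 nearest were taken in order of start coordinate, 5 on each side, and 1 of them, Mir1938, lies inside Ifrd1. The 9 others had differences from -0.18 to 0.11 (log2), and 0 of them had an unadjusted limma p under 0.05. The adjacent protein-coding gene Lsmem1, which encodes a membrane protein, was at -0.17 ± 0.14 (log2 difference, SE), at levels below every array median. Zfp277, a zinc finger gene on the other side, was at -0.07 ± 0.13 (log2 difference, SE), and its sign turned without wild type 2 (0.023). Of the 9, 7 were lower in the null, and 3 were above no array median, so a difference in those 3 could be missed.

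**Figure D2:**
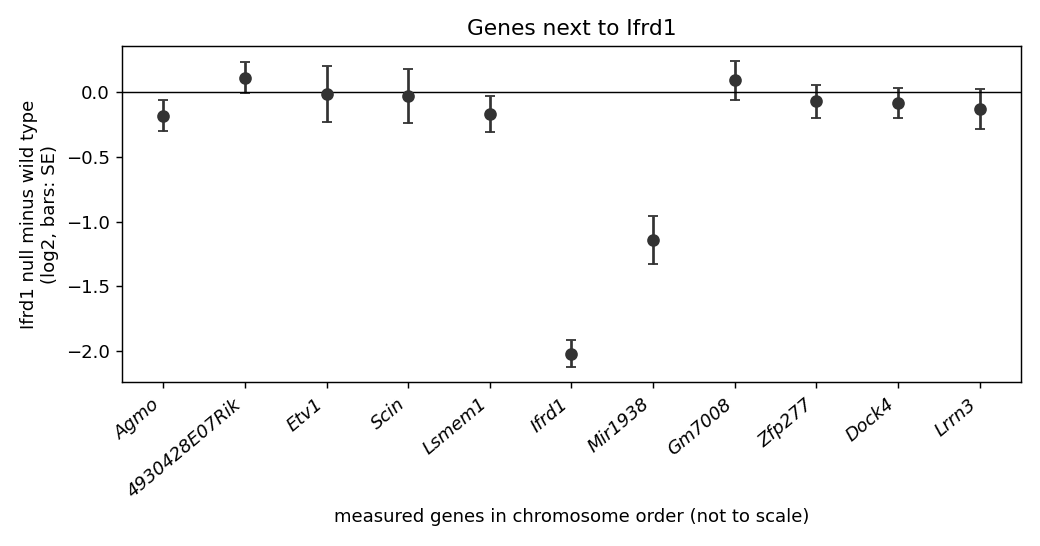
Difference between Ifrd1 null and wild type (log2, vertical axis, bars are SE) for Ifrd1 and 5 measured genes on each side by start coordinate. They are in chromosome order along the horizontal axis, not to scale, and Mir1938 lies inside Ifrd1. Ifrd1 (-2.02) and Mir1938 (-1.14) lie low, and the other 9 lie between -0.18 and 0.11.

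By their 4 values, each centred on the gene's own mean, the genes nearest to Ifrd1 were C7, Gpx2, Mir1938, Kdm5d and Cldn6. Their root mean square differences from Ifrd1 over the 4 arrays were 0.21, 0.43, 0.46, 0.50 and 0.51 (log2). C7 encodes a complement component and had a difference of -1.62 ± 0.12 (log2, SE), with a limma adjusted p of 0.318. Gpx2, a glutathione peroxidase of epithelia, was at -1.21 ± 0.16, and Cldn6, a claudin of tight junctions, at -1.09 ± 0.22 (log2 difference, SE). The limma adjusted p of each was 0.721, and Gpx2 was above the array median on 1 array. These genes were chosen by their likeness to Ifrd1, so a large difference follows from that choice. Kdm5d, a histone demethylase gene on the Y chromosome, is in this list together with a difference in sex-linked genes. Xist was at 2.56 and 3.54 in wild type and at 10.2 and 9.58 in the null, and the Y-linked genes Uty, Eif2s3y and Kdm5d were low on both null arrays. Genotype and sex, as read from these genes, cannot be told apart in these 4 arrays. Of the 8 members, 0 are on X or Y.

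Ifrd2, the paralog of Ifrd1, is known as a ribosome-associated protein that can hold back translation. Its level was 8.19 and 8.25 in wild type, and 7.75 and 8.53 in the null (log2). The null arrays stood on opposite sides of wild type, so the groups overlapped. The difference was -0.08 ± 0.28 (log2, SE), and its 95% interval, -0.84 to 0.67, ran from 1.79-fold lower to 1.59-fold higher. The limma adjusted p was 0.945, and the sign turned with cyclic loess (0.010) and without Ifrd1 null 1 (0.31). A difference in Ifrd2 as large as that in Ifrd1 lay outside the interval in either direction.

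The gap between the null arrays was the wider feature of Ifrd2. Null 1 was below null 2 by 0.78 on the log2 scale, and 2.64% of all genes had a wider gap between these arrays. The wild-type arrays differed by 0.07. Across all genes the median gap was 0.17 between the null arrays and 0.14 between the wild-type arrays (absolute log2).

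Acinar cell markers differed between the null arrays in the same direction as Ifrd2. All 8 measured of 12 acinar markers, among them the digestive enzyme genes Cpa1 and Cela1 and the transcription factor gene Ptf1a, were lower in null 1 than in null 2, with a median gap of -0.40 (log2). Each was above the median of every array, so the tissue label is borne by its markers. Their summed level was 12.1 on each wild-type array, 11.8 in null 1 and 12.3 in null 2 (log2 of the mean linear value). The median log2 gap, null 1 minus null 2, was above 0 for markers of B and plasma cells (1.56), adipocytes (1.41) and macrophages (0.65). It was also above 0 for stellate cells and fibroblasts (0.36) and T and NK cells (0.25). Every measured marker of these lists was higher in null 1. Duct (0.17), neutrophil (0.13) and endothelial (0.03) lists were mixed, with 5 of 8, 3 of 6 and 6 of 8 markers higher in null 1. Intestinal epithelium (-0.18) and islet (-0.04) medians were below 0, with 6 of 9 markers lower in each list. The part of these markers in the Ifrd2 values was not tested. In RNA from whole tissue, fewer cells of a type and less RNA per cell cannot be told apart.

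**Figure D3:**
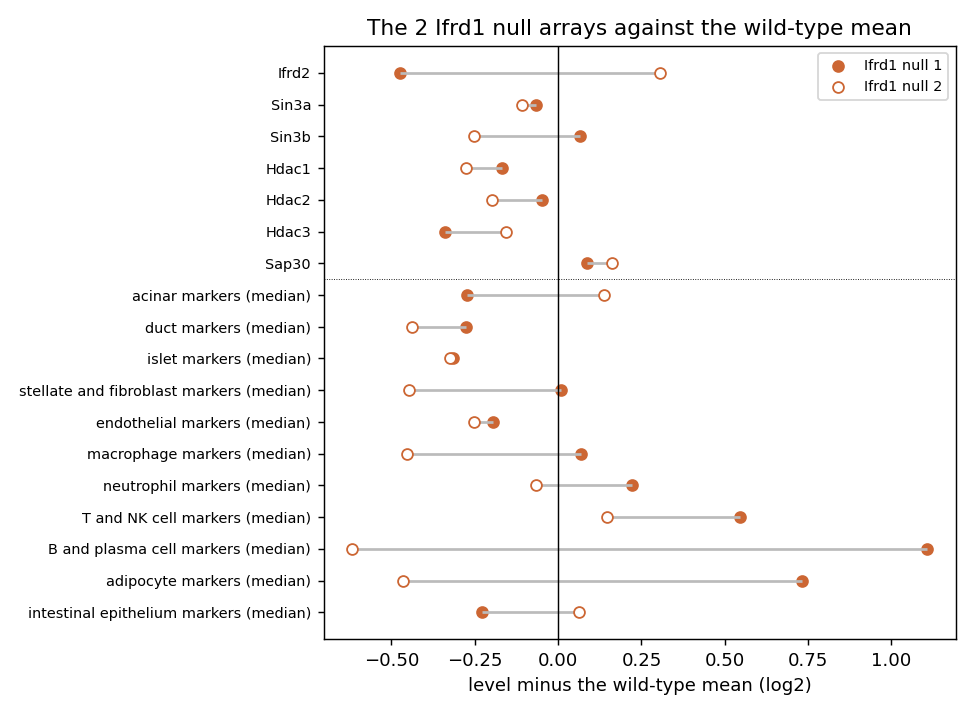
Level of each null array minus the wild-type mean (log2, horizontal axis) for the 7 members other than Ifrd1 and for the median of each list of cell type markers; filled circles are Ifrd1 null 1 and open circles Ifrd1 null 2. Ifrd2 and the acinar markers lie left of 0 in null 1 and right of 0 in null 2, while B and plasma cell markers do the reverse.

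The Sin3 scaffolds showed no separation of genotypes. Sin3a was at 7.11 and 6.95 in wild type and at 6.96 and 6.92 in the null (log2 level), so the values of the groups overlapped. Its difference was -0.09 ± 0.11 (log2, SE; limma adjusted p = 0.851), with a 95% interval from 1.31-fold lower to 1.16-fold higher; it was -0.0064 without wild type 1 and -0.17 without wild type 2. Sin3b, the paralogous scaffold, was at 6.58 and 6.60 in wild type and at 6.65 and 6.33 in the null (log2 level). Null 1 was above both wild-type arrays and null 2 below them. The Sin3b difference was -0.09 ± 0.15 (log2, SE; limma adjusted p = 0.876), from 1.40-fold lower to 1.23-fold higher at the ends of its 95% interval, and its sign turned without Ifrd1 null 2 (0.066).

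The deacetylases Hdac1, Hdac2 and Hdac3 were each lower on both null arrays than on both wild-type arrays, by small amounts that did not pass the test. The same order held for 29.1% of genes above the median level and 19.7% of all genes. Hdac1, a catalytic subunit of the Sin3 complex, was at 7.33 and 7.25 in wild type and at 7.13 and 7.02 in the null (log2 level). Its difference was -0.22 ± 0.11 (log2, SE; limma adjusted p = 0.740), 1.17-fold. The arrays of wild type differed by 0.08 and those of the null by 0.11.

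Hdac2, which shares that role with Hdac1, was at 6.96 and 6.97 in wild type and at 6.91 and 6.77 in the null (log2 level). Its difference of -0.12 ± 0.11 (log2, SE; limma adjusted p = 0.803) was smaller than the gap of 0.15 between the null arrays; it was -0.20 without Ifrd1 null 1 and -0.049 without Ifrd1 null 2. Hdac3, the enzyme of the NCoR complex, was at 8.13 and 8.12 in wild type and at 7.79 and 7.97 in the null (log2 level). Its difference was -0.25 ± 0.12 (log2, SE; limma adjusted p = 0.734), 1.19-fold; it was -0.16 without Ifrd1 null 1 and -0.34 without Ifrd1 null 2. The 95% intervals of these 3 genes reached 1.43-fold, 1.34-fold and 1.47-fold lower and 1.05-fold, 1.13-fold and 1.05-fold higher, in that order. The 3 signs held with quantile normalization, median centring and cyclic loess, with differences from -0.30 to -0.04 (log2). Markers of some cell types differed between the genotypes too, where 67.3% of genes above the median level were lower in the null. Lower were 8 of 8 endothelial, 7 of 8 duct and 7 of 9 islet markers (median log2 differences -0.19, -0.25 and -0.30). So were 8 of 10 stellate and fibroblast, 6 of 8 acinar and 9 of 9 macrophage markers (-0.20, -0.05 and -0.10). Higher were 7 of 7 T and NK cell, 6 of 6 B and plasma cell and 5 of 6 neutrophil markers (0.32, 0.23 and 0.14). The macrophage median was 0.07 in null 1 and -0.45 in null 2 against the wild-type mean, and the groups overlapped for all 9 markers. Against the same mean, the B and plasma cell median was 1.11 in null 1 and -0.62 in null 2. The neutrophil median was 0.22 and -0.07, and the T and NK cell median 0.55 and 0.15, in that order. Both null arrays exceeded wild type for 0 of 6 B and plasma cell, 1 of 7 T and NK cell and 1 of 6 neutrophil markers. Above the median of every array were 3 of 7 T and NK cell and 1 of 6 neutrophil markers. The acinar median was -0.27 in null 1 and 0.14 in null 2 against that mean, and the stellate and fibroblast median 0.008 and -0.45. For endothelial, duct and islet markers the median was below the wild-type mean on both null arrays. With cyclic loess, 4 of 8 acinar markers were lower, with a median difference of -0.01. With quantile normalization and with cyclic loess, 5 of 9 macrophage markers were lower. The signs of the median differences between the genotypes held for these lists. The part of these cells in the deacetylase values was not tested.

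Sap30, a subunit that binds Sin3 and stabilises the complex, went the other way. It was at 5.60 and 5.65 in wild type and at 5.71 and 5.79 in the null (log2 level). Both null arrays were above both wild-type arrays, by little, as for 16.1% of all genes. Its difference was 0.13 ± 0.10 (log2, SE; limma adjusted p = 0.789), with a 95% interval from 1.11-fold lower to 1.32-fold higher, and its sign held under the same 3 scalings.

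**Figure D4:**
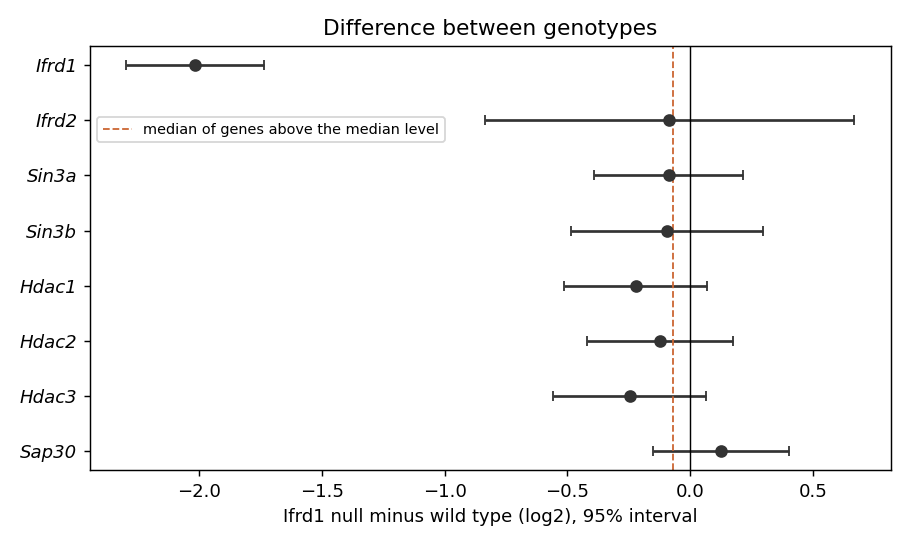
Difference between Ifrd1 null and wild type (log2, horizontal axis) with its 95% interval from limma for each measured gene; the dashed line is the median difference of genes above the median level. The interval of Ifrd1 (-2.30 to -1.74) lies apart from 0, and the other 7 include 0.

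Each count over the 8 members is set here beside the same count over all genes. With limma, 0 of 8 passed at adjusted p under 0.05, as did 0.00451% of all genes (1 gene, Uty). At unadjusted p under 0.05 there was 1 member, Ifrd1, and 6.91% of all genes (3.63% lower and 3.27% higher). Without Ifrd1 null 2 the differences of Ifrd2 and Hdac3 were -0.47 and -0.34 (log2). In the null, 7 of 8 members were lower, where 52.7% of all genes and 67.3% of genes above the median level were. The groups did not overlap for 5 members and for 35.8% of all genes. For 4 members the null arrays were both below the wild-type arrays, as for 19.7% of all genes and 29.1% of genes above the median level, and for 1 they were both above, as for 16.1% of all genes. The median difference of the 8 was -0.11 (log2), of genes above the median level -0.07 and of all genes -0.012. With quantile normalization the member median was -0.046 and with cyclic loess -0.033, and the median of all genes then lay at -0.0031 and -0.0049. The median of genes above the median level was not computed under these scalings.

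Other genes of these complexes were read from lists. The lists were of Sin3, NCoR, NuRD and CoREST subunits, DNA-binding partners of Sin3 and other deacetylases. Further lists were of acetyltransferases and of genes of the NF-kB and Tcf pathways linked to Ifrd1. Together they held 103 gene symbols, and 91 genes were measured. With limma 0 of the 91 passed in either direction, and 5 had an unadjusted p under 0.05, all lower in the null. At that level 3.63% of all genes were lower, as were 600 of the 11090 genes above the median level. Of the 91, 88 were above the median on every array. For 30 of the 91 (33.0%) both null arrays lay below both wild-type arrays, as for 29.1% of genes above the median level. For 7 both lay above, as for 978 of the 11090 genes above the median level. Of the 91, 65 were lower (71.4%, where 67.3% of genes above the median level were) and 26 higher, with a median of -0.08 (log2), and 75 differed by less than 0.25. On X lay 8 of them, of which 7 were lower (median -0.23), and 58 of the 83 others were lower (median -0.07). Over all 899 measured genes on X, 46.8% were lower (median 0.016), and over the 325 of them above the median level 58.8% were (median -0.048).

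Sin3 complex subunits had a median difference of -0.07 (log2), with 10 of 13 lower. Ogt, an enzyme that attaches N-acetylglucosamine to proteins and joins Sin3, was at 9.05 and 9.14 in wild type and at 8.94 and 8.58 in the null (log2 level), a difference of -0.33 ± 0.16 (SE). Rbbp7, a histone chaperone shared by Sin3 and NuRD, was at -0.25 ± 0.12 (log2 difference, SE). Both are genes on X. Without wild type 1 the median of the list was -0.14.

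DNA-binding partners that bring Sin3 to its targets had a median of -0.03 (log2), with 9 of 14 lower; it was 0.03 with quantile normalization and with cyclic loess, and 0.01 without wild type 1. Mxd4, a Max partner that opposes Myc, was at -0.15 ± 0.11, Rest, the repressor of neuronal genes, at -0.25 ± 0.11, and Klf11, a Krüppel-like factor, at -0.25 ± 0.12 (log2 difference, SE).

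Of the NCoR and SMRT subunits, 5 of 6 were lower, with a median of -0.15 (log2) that ranged from -0.24 to -0.07 with each array left out. Tbl1xr1, a WD40 subunit that exchanges corepressors, was at 6.87 and 6.97 in wild type and at 6.67 and 6.60 in the null (log2 level), a difference of -0.29 ± 0.11 (SE; limma adjusted p = 0.721). Its X-linked relative Tbl1x was at -0.21 ± 0.13, and Bcl6, a repressor that recruits the complex, at 0.25 ± 0.11 (log2 difference, SE).

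NuRD, another complex of Hdac1 and Hdac2, had 8 of 10 subunits lower and a median of -0.15 (log2), which was -0.08 with quantile normalization and -0.06 with cyclic loess. Mta1 was at -0.17 ± 0.11, Mta2 at -0.27 ± 0.11 and Cdk2ap1 at -0.47 ± 0.26 (log2 difference, SE). Cdk2ap1 was at 5.71 in null 1 and 6.41 in null 2 (log2 level), so its arrays differed by more than its genotypes. It had 2 rows, and with the mean of its rows the difference was -0.20 ± 0.21 (log2, SE). CoREST subunits had a median of -0.06 (log2; -0.016 without Ifrd1 null 2), with 7 of 8 lower; the demethylase Kdm1a was at -0.11 ± 0.13, the scaffold Rcor1 at -0.09 ± 0.10 and Zmym2 at -0.13 ± 0.16 (log2 difference, SE). The Rcor1 sign turned with cyclic loess (0.0013), and those of Kdm1a and Zmym2 without Ifrd1 null 2 (0.0006 and 0.013).

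The other deacetylases had 12 of 15 lower and a median of -0.13 (log2), which was -0.04 with quantile normalization and with cyclic loess. Hdac8, a class I enzyme like Hdac1, was at 5.99 and 6.03 in wild type and at 5.67 and 5.49 in the null (log2 level), a difference of -0.43 ± 0.12 (SE; limma adjusted p = 0.721). Hdac6, the tubulin deacetylase, was at 5.97 and 6.15 in wild type and at 5.75 on each null array (log2 level), a difference of -0.31 ± 0.12 (SE; limma adjusted p = 0.721). For both genes the null arrays lay below the wild-type arrays, as for 5 of the 15 in this list and 29.1% of genes above the median level. Both are on X, where measured genes as a whole had a median of 0.016 and those above the median level -0.048 (log2 difference). The sirtuin Sirt2 was at -0.13 ± 0.15 (log2 difference, SE), and its sign turned without Ifrd1 null 1 (0.036).

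Acetyltransferases, the opposing enzymes, had 6 of 10 lower and a median of -0.02 (log2), which was 0.06 with cyclic loess and ranged from -0.05 to 0.03 with each array left out. Crebbp was at 0.16 ± 0.17, Kat5 at -0.30 ± 0.15 and Kat7 at -0.18 ± 0.10 (log2 difference, SE); the Crebbp sign turned without Ifrd1 null 1 (-0.023).

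NF-kB and Tcf genes, whose activity Ifrd1 is known to dampen through deacetylases, had 8 of 15 lower and a median of -0.12 (log2), which was 0.02 without wild type 2. Ccnd1, the G1 cyclin, was at 6.94 and 7.19 in wild type and at 6.61 and 6.67 in the null (log2 level), a difference of -0.42 ± 0.13 (SE; limma adjusted p = 0.721). Ctnnb1, which encodes beta-catenin, was at 9.67 and 9.78 in wild type and at 9.47 and 9.35 in the null (log2 level), a difference of -0.32 ± 0.11 (SE; limma adjusted p = 0.721). Of the 15 genes, these 2 were lower on each null array than on each wild-type array, where 29.1% of genes above the median level were.

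**Figure D5:**
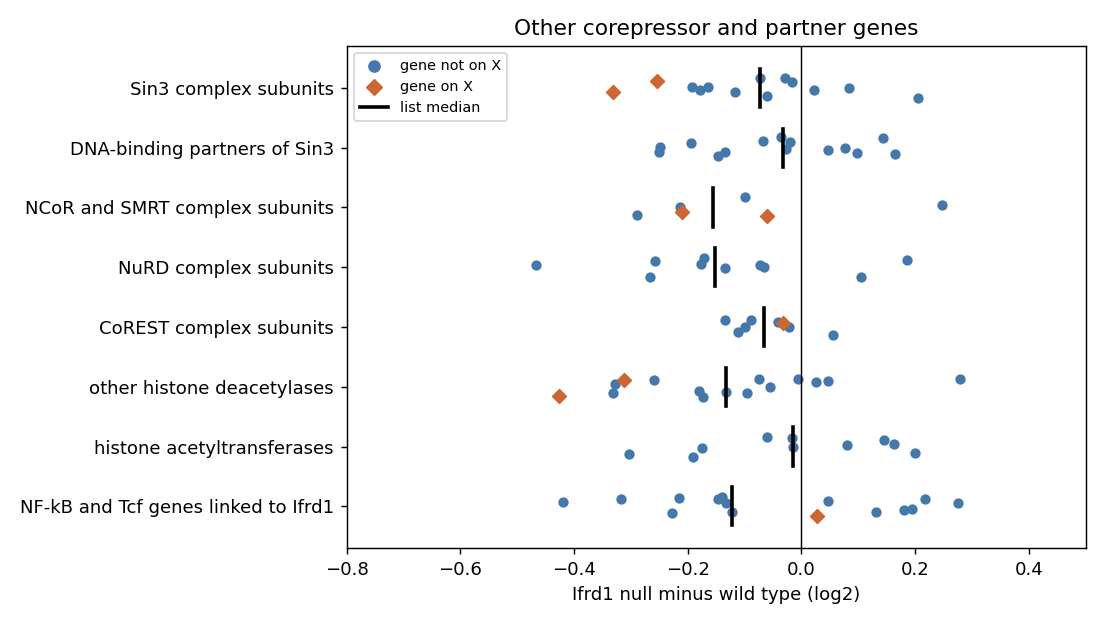
Difference between Ifrd1 null and wild type (log2, horizontal axis) for each measured gene of 8 lists of corepressor and partner genes; orange diamonds are genes on X, blue circles other genes and black bars list medians. All 91 genes lie between -0.47 and 0.28, and the list medians between -0.15 and -0.02.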

How the data were processed

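The deposited table, 1 value for each transcript cluster on each array, was read as log2 levels from its range (0.218 to 13.9); what the authors did for background, probe summary and normalization, and the log base, are not given in the sources used here. Array medians were 4.08 to 4.15. Of 41345 rows, 23521 had 1 gene symbol and gave 22180 genes. Dim rows were kept, and the number of arrays limits the precision. Ifrd1 null was compared with wild type in limma 3.58.1 (R 4.3.3, lmFit and eBayes, no covariates), two-sided, with Benjamini-Hochberg adjustment over all genes at 0.05; the code was tested on simulated data. With 2 against 2 arrays an exact permutation test cannot go below p = 0.333, so none is given. Members and lists were chosen with earlier results of these data known. Named genes are the members, the 5 genes most like Ifrd1, neighbours of Ifrd1, sex-linked genes, 3 acinar markers and, of each list, the highest mean and the 2 smallest p. Alternatives were other scalings, a replicate block, other variance models, gene filters, row means and leaving out each array. Sequences and gene order come from RefSeq tables (GRCm38.p6), in which 21994 genes were found; the build of the array annotation is not given here, so gene coordinates are not printed.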

Additional observations from a re-analysis of the deposited data

How the results depend on the processing

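The Ifrd1 difference lay between -2.07 and -1.92 under all alternatives; it passed the threshold with median centring (-2.07) and with a trend and robust eBayes (-2.02) and not elsewhere, and without each array in turn it ranged from -2.07 to -1.97. The replicate number as a block left it at -2.02 (limma adjusted p = 0.0809); deviations of same-numbered arrays correlated at -0.04 over genes, so the arrays share only a number, and the block moved the count of genes past the threshold from 1 to 4. That count was 4 with quantile normalization and with cyclic loess, 5 with median centring and with a trend and robust eBayes, 0 among genes above the median level, 0 without X and Y genes, and 0 (range 0 to 0) without each array in turn. Genes at unadjusted p under 0.05 numbered 1532, 884 among genes above the median level, where fewer were tested, and 1301 to 2232 without each array. Members at that level numbered 1 to 3 and members lower in the null 6 to 7 without each array. The median of the members was -0.046 with quantile normalization, -0.16 with median centring and -0.033 with cyclic loess, and ranged from -0.18 to -0.12 without each array. Signs turned for Ifrd2 (0.010) and Rcor1 (0.0013) with cyclic loess. Without each array in turn, Ifrd2 ranged from -0.47 to 0.31, Sin3b from -0.25 to 0.066, Zmym2 from -0.28 to 0.013, Kdm1a from -0.22 to 0.0006, Sirt2 from -0.30 to 0.036, Crebbp from -0.023 to 0.35, Gm7008 from -0.050 to 0.23 (-0.00078 without Ifrd1 null 2) and Zfp277 from -0.17 to 0.023. Apart from the arrays left out, the cause was not tested. Median centring moved the median of all genes from -0.01 to -0.06 and the share lower in the null from 52.7% to 62.3%. Where an array was left out, the lone array of its genotype was assumed to vary like the other genotype. Of 96 list medians under alternatives, chosen after seeing the data, 23 moved by more than the spread between arrays and 10 changed sign. No call was made on a member, so these settings ended none.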
